A study of Homo sapiens with 6 samples.

Results

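Metallothioneins are small, cysteine-rich proteins that bind zinc and copper. The genes examined here are 6 metallothionein genes (MT1E, MT1F, MT1G, MT1M, MT1X and MT2A), the zinc exporter gene SLC30A1 and MTF1, which encodes the metal-sensing transcription factor of the system. They were chosen by name, with earlier results of these data known. All 8 were found among the 46427 genes of the deposited gene table, with 14 of the 170322 transcripts in the transcript table. Of the 8 genes, 5 passed the filter on low counts; MT1F, MT1G and MT1M did not and are given by their values only.

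RNA was sequenced from radioresistant cells (MDA-MB-231/RR) of the established human breast cancer line MDA-MB-231, in 3 control libraries and 3 libraries of cells given ortho-topolin riboside (oTR, a plant cytokinin nucleoside) together with melatonin. Both groups were grown in medium with 10% serum and harvested with trypsin at 70% to 90% confluency. No source used here gives doses, exposure times or a vehicle, and single-compound libraries were not analysed here. The labels do not say whether replicates were separate cultures; p-values therefore reflect the spread between these samples alone, which may be technical.

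In zinc-replete cells, zinc binds MTF1, which then binds metal response elements, short sequences upstream of its targets, and raises transcription of metallothionein genes and of SLC30A1. Metallothioneins hold the metal in the cytosol, SLC30A1 carries it out across the plasma membrane, and transporters of the SLC39 (ZIP) family bring it into the cytosol. Metallothionein genes also respond to copper, cadmium, oxidants and glucocorticoids.

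Library totals ranged from 50569611 to 72309015 estimated counts. The 6 markers of the line (VIM, CD44, KRT8, KRT18, EGFR and AXL) had group means from 324 to 2224 CPM (counts scaled to a common library size). Of 5 genes listed as low in this line, ESR1, PGR and CDH1 had too few counts to be tested, EPCAM fell from 0.313 to 0.128 CPM (edgeR adjusted p = 0.0415), and ERBB2 was present at 65.3 and 70.06 CPM. The summed level of 5 fibroblast markers was 7.41 to 9.35 TPM in controls and 6.94 to 7.39 TPM in co-treated libraries, with COL1A2 and DCN at 0 and most of the sum in COL1A1, which fell from 21.7 to 17.4 CPM (edgeR adjusted p = 0.0091); TPM is a length-scaled share of each library's transcripts. For 3 endothelial markers it was 0.225 to 0.317 TPM and 0.374 to 0.428 TPM. The part of these levels in the results was not tested.

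The promoters are shown first because metal response elements are the known binding sites of MTF1. The core of the element was searched as TGCACNC and TGCGCNC on both strands, in the 300 bases from 250 before to 50 after the start site (RefSeq, build GRCh38.p14). Of the 8 genes, 4 have a window in the RefSeq table used. The 250 bases upstream of each start follow, 5′ to 3′ on the gene's strand, with core matches in capitals. MT2A is shown as the member that rose, MT1X as a relative that did not pass the test, SLC30A1 as the exporter and MTF1 as the regulator.
MT2A (plus strand, chr16:56608334-56608583): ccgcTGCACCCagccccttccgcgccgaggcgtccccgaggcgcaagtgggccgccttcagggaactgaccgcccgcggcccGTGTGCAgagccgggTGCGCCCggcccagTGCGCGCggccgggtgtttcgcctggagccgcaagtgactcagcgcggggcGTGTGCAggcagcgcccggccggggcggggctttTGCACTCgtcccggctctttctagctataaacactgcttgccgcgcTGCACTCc
MT1X (plus strand, chr16:56682220-56682469): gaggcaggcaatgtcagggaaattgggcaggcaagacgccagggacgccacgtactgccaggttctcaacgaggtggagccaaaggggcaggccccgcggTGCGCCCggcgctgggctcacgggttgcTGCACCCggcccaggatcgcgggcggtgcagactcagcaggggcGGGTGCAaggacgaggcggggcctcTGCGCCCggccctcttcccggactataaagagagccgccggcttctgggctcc
SLC30A1 (minus strand, chr1:211579162-211579411): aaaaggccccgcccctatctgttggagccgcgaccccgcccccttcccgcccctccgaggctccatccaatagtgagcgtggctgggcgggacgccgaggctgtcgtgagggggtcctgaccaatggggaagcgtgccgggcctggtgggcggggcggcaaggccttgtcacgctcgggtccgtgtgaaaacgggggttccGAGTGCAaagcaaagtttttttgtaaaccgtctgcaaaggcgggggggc
MTF1 (minus strand, chr1:37859593-37859842): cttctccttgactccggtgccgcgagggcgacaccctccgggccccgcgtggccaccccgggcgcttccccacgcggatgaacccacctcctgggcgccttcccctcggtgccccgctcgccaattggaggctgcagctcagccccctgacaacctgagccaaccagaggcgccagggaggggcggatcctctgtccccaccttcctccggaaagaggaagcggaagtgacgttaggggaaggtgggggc
In the whole window MT2A had 8 core matches, MT1X 4, SLC30A1 2 and MTF1 0. A core match was present in 29.6% of the 35116 promoter windows of the table. At least 4 matches were present in 0.601% of windows, and 8 or more in 7 windows (0.0199%), MT2A among them. In MT2A the matches began at positions -246, -168, -153, -139, -88, -54 and -8 before the start site and at 31 after it. In MT1X they began at -150, -122, -78 and -53. In SLC30A1 they began at -49 and 25. A match is a description of these letters and does not show binding. With the less specific core TGCNCNC the MT2A, MT1X and SLC30A1 windows kept 8, 4 and 2 matches, MTF1 had 1, and 55.9% of all windows had at least 1. Of the other lists described below, the core was found in the windows of 3 of 3 other metallothioneins, 4 of 9 zinc exporters, 7 of 12 zinc importers, 4 of 11 copper handling genes, 4 of 11 metal- and oxidant-induced genes and 2 of 11 glucocorticoid response genes that have one.

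The coding sequences of the 3 metallothionein genes with counts in every library are shown because their closeness bears on how reads were assigned. They come from GENCODE release 29 transcripts matched to the deposited RefSeq names; capitals mark in-frame TGC and TGT codons, which encode cysteine.
MT2A: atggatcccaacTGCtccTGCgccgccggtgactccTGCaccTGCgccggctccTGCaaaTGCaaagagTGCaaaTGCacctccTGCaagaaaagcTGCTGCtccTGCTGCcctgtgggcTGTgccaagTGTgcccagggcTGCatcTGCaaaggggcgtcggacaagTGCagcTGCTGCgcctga
MT1E (variant 2): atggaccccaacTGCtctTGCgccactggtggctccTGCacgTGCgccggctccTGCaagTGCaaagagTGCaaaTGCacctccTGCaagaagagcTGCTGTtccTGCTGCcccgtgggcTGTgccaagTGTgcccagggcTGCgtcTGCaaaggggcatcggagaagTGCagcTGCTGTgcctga
MT1X: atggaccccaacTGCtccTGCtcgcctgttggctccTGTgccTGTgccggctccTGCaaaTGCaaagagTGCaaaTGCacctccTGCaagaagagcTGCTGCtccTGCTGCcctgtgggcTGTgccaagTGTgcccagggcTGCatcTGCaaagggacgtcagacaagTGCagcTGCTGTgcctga
Each has 61 codons before the stop, and 20 of them (32.8%) are cysteine codons. MT2A was identical to MT1E at 92.5% of the 186 positions and to MT1X at 92.5%, and MT1E to MT1X at 90.9%. Among the 61-codon forms of all 6 metallothionein genes, identity ran from 88.7% (MT1F and MT1X) to 95.2% (MT1G and MT2A). The GENCODE models are longer than the deposited transcripts for some genes (786 against 401 nt for MT2A, 704 against 398 nt for MT1E variant 2 and 450 against 404 nt for MT1X), and shares of unique sequence refer to the GENCODE models. Of all 75-base stretches of the MT2A transcript, 100% occurred in no other gene of GENCODE 29. The share was 99.2% for MT1E variant 2, 93.4% for MT1G, 99.9% for MT1M, 100% for MT1F and 68.4% for MT1X. The MT1X stretches that were shared lay in AC026461.1, an overlapping transcript on the same strand, in MT1G and in the pseudogene MT1XP1. No source used here gives the read length; at 50 bases the unique share of MT1X was 54.9% and that of MT2A 95.1%. MT1X values are uncertain for this reason. The processing notes name tools without roles, so how shared reads were assigned is not known.

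Of the 5 tested genes, MT2A passed the test in co-treated cells, where its mRNA rose 1.36-fold. MT1E, the next most abundant, and MTF1 did not pass the test, nor did MT1X and SLC30A1. A gene was called when its edgeR quasi-likelihood p, adjusted by Benjamini and Hochberg's method over all 16557 tested genes, was under 0.05. In all, 33.7% of tested genes were called, 16.6% higher and 17.1% lower, so 1 call among 5 tested members is no more than the background share.

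MT2A (gene ID 4502, chromosome 16, 56608584 to 56609497 on GRCh38, 3 exons, plus strand) encodes the main ubiquitously expressed metallothionein. Its normalized level was 488, 472 and 490.1 CPM in control replicates 1, 2 and 3, and 611, 692 and 671 CPM in co-treated replicates 1, 2 and 3. Every co-treated library lay above every control. Groups that did not overlap, counted in either direction, were found for 47.4% of tested genes. The means were 483 ± 9.64 and 658 ± 42.3 CPM (SD, n = 3). The log2 difference was 0.45 ± 0.051 (SE, adjusted p = 0.000129 by edgeR). The 95% interval of the fold was 1.26 to 1.47. MT2A was called in the same direction in all 19 alternative analyses of the gene values, with log2 fold changes from 0.41 to 0.69.

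MT1E (gene ID 4493, chromosome 16, 56625781 to 56627112), a metallothionein of the MT1 group, had 136, 126 and 132 CPM in the controls and 131, 136 and 137 CPM in the co-treated libraries. The groups overlapped. Its log2 fold change was 0.035 ± 0.045 (SE; edgeR adjusted p = 0.593), with a 95% interval of 0.956 to 1.10 for the fold. With the trend of change on transcript length removed, MT1E passed the test at a log2 fold change of 0.23 (edgeR adjusted p = 0.00203), and at 0.28 with length and GC trends removed (edgeR adjusted p = 0.000266).

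MT1X (gene ID 4501, chromosome 16, 56682470 to 56684196) had 26.0, 27.4 and 28.1 CPM in the controls and 20.1, 24.8 and 26.4 CPM in the co-treated libraries. Co-treated replicate 1 was the lowest, and co-treated replicate 3 lay above control replicate 1. The log2 fold change was -0.19 ± 0.089 (SE; edgeR adjusted p = 0.124), with a 95% interval of 0.764 to 1.00 for the fold. Without co-treated replicate 3 it was -0.28 and passed (edgeR adjusted p = 0.0482), and without co-treated replicate 1 it was -0.086 (0.343). With length and GC trends removed the sign turned, at 0.054 (edgeR adjusted p = 0.546).

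SLC30A1 (gene ID 7779, chromosome 1, 211571568 to 211579161, 2 exons, minus strand) had 56.1, 62.6 and 56.6 CPM in the controls and 65.3, 61.6 and 63.0 CPM in the co-treated libraries. Control replicate 2 lay within the co-treated range. The log2 fold change was 0.12 ± 0.054 (SE; edgeR adjusted p = 0.124), with a 95% interval of 0.998 to 1.18 for the fold. It passed without control replicate 2 (0.17; edgeR adjusted p = 0.0389), with library size alone (0.17; 0.0326) and on the log2(TPM + 1) scale (0.24; limma adjusted p = 0.0249). There, all tested genes had a median of 0.091. With length and GC trends removed its sign turned, at -0.040 (edgeR adjusted p = 0.522).

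MTF1 (gene ID 4520, chromosome 1, 37809570 to 37859614, minus strand) had 35.6, 36.5 and 34.7 CPM in the controls and 35.3, 35.0 and 35.8 CPM in the co-treated libraries. All 3 co-treated values lay inside the control range. The log2 fold change was -0.007 ± 0.050 (SE; edgeR adjusted p = 0.925), and the 95% interval of the fold was 0.922 to 1.07. Its sign changed with the scaling, from -0.12 with the length trend removed to 0.12 on the log2(TPM + 0.1) scale, where the median of all genes was also 0.12, and MTF1 passed the test in none of the 19 alternatives.

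**Figure D1:**
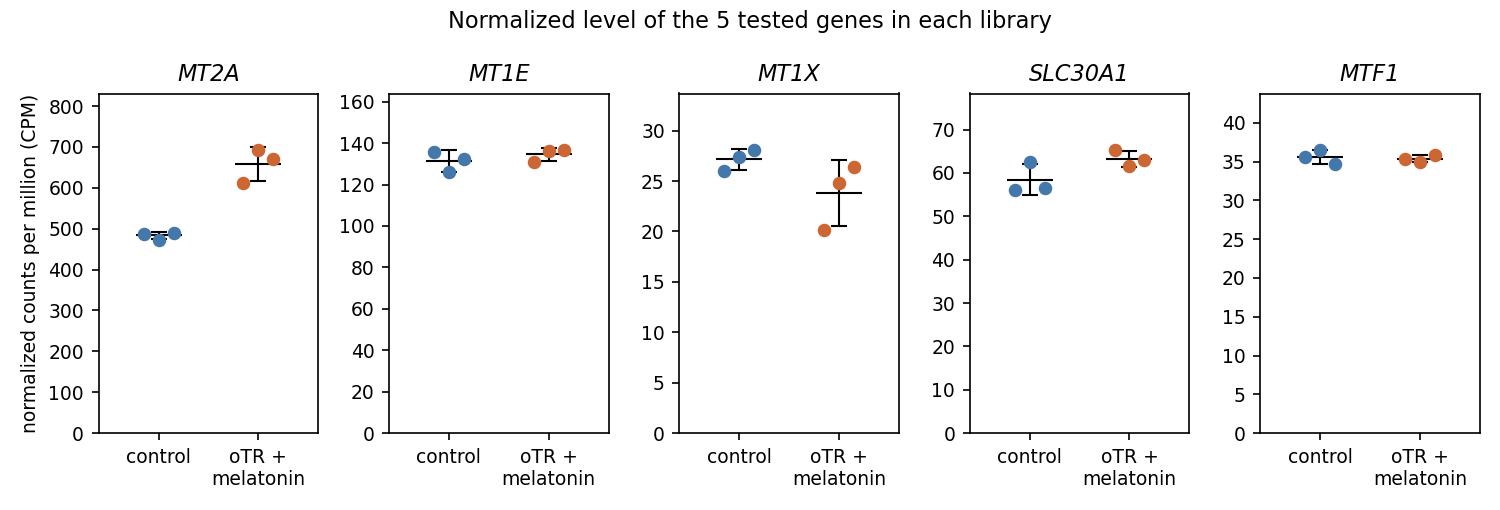
Normalized level (CPM) of MT2A, MT1E, MT1X, SLC30A1 and MTF1 in the 3 control (blue) and 3 co-treated (orange) libraries; dots are libraries, the dash and bar are mean and SD, and each axis starts at 0. MT2A is the gene whose co-treated libraries (611 to 692 CPM) all lie above the controls (472 to 490.1 CPM).

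MT1F (gene ID 4494), MT1G (gene ID 4495) and MT1M (gene ID 4499), metallothioneins of the same chromosome 16 cluster, were listed at 0 in all 6 libraries. A count of 0 allows a level of up to 0.0409 to 0.0581 CPM, depending on the library (3 counts), for counting error only. It does not cover reads that were assigned to a relative. No fold change can be given for these genes. Of 12 further metallothionein genes and pseudogenes in the table, none passed the filter, and MT1H, MT1HL1, MT1L, MT1DP, MT1IP, MT3 and MT4 were at 0 throughout. MT1A had 3, 4 and 8 counts in the controls and 2, 5 and 0 in the co-treated libraries. MT1JP, a pseudogene, had 43, 0 and 93 counts in the controls and 0 in each co-treated library. Control replicate 2, at 0, makes the groups overlap. MT2P1, a pseudogene related to MT2A, had 4, 3 and 3 counts in the controls and 5, 8 and 9 in the co-treated libraries.

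Within the cluster the expressed genes were not neighbours. MT1X begins 73.9 kb beyond the MT2A start and MT1E 17.2 kb beyond it, and MT1L, at 0, lies between MT2A and MT1E. The gene MT1M, at 0, begins 24.1 kb from the MT2A start. The flanking genes outside the cluster differ in function: BBS2, a ciliary gene, ends 88.5 kb before MT2A, and NUP93, a nuclear pore gene, begins 122 kb after its start.

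**Figure D2:**
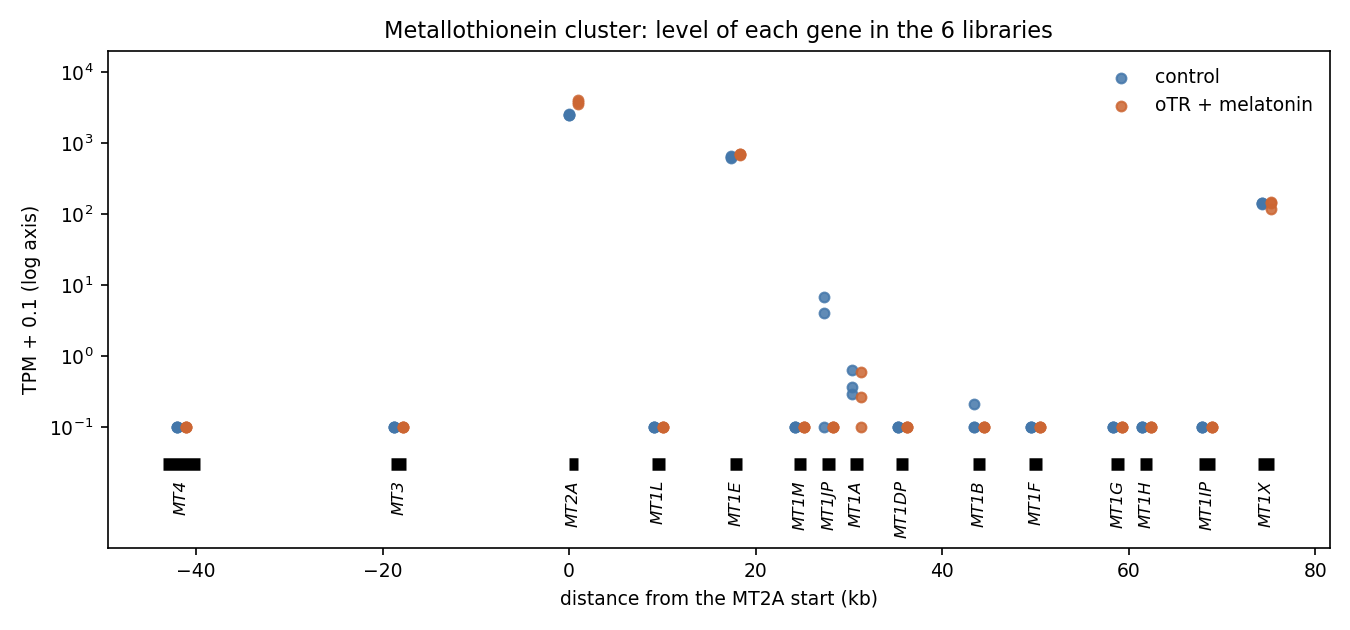
Level of each metallothionein gene (TPM + 0.1, log axis) against distance from the MT2A start in kb; dots are the 6 libraries, set apart by 1 kb between groups so that both can be seen, and black bars are the gene spans. MT2A, MT1E and MT1X stand above 100 TPM, and MT1F, MT1G and MT1M lie at the floor of 0.1, a listed 0.

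Per length, MT2A was by far the most abundant of the 8 genes. Its level was 2553 ± 46.5 TPM in controls and 3805 ± 199 TPM in co-treated libraries (SD, n = 3), and among all genes of a library it ranked between 17 and 55. MT1E followed at 638 ± 26.0 and 693 ± 16.6 TPM, between ranks 169 and 190. MT1X had 142 ± 3.89 and 136 ± 16.5 TPM, between ranks 1015 and 1372. SLC30A1 had 21.0 ± 1.53 and 24.9 ± 1.09 TPM, and MTF1 9.57 ± 0.429 and 10.4 ± 0.132 TPM. The order MT2A, MT1E, MT1X, SLC30A1, MTF1 held in each of the 6 libraries, and no neighbours in it overlapped.

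In TPM the metallothionein sum was larger in co-treated libraries, and MT2A made up more of it. The summed level of the 6 metallothionein genes was 3408, 3281 and 3311 TPM in the controls and 4392, 4846 and 4664 TPM in the co-treated libraries, 1.39 times the control mean. On this scale the median log2 ratio of all tested genes was itself 0.131. For the 182 tested genes whose most abundant transcript was 300 to 500 nt it was -0.033. The groups of MT1E did not overlap (611 to 663 and 674 to 706 TPM). How many tested genes separate in TPM was not counted, and MT1E did not pass on log2(TPM + 1) (limma adjusted p = 0.071). In CPM the sum was 642 ± 14.2 and 816 ± 48.1 (SD, n = 3), a ratio of 1.27. MT2A made up 76.5%, 76.9% and 76.4% of the TPM sum in controls and 82.0%, 82.5% and 81.8% in co-treated libraries. MT1E made up 18.6% to 19.5% of the TPM sum in controls and 14.6% to 15.4% in co-treated libraries. These sums are descriptions with no test, since the genes were chosen with results known.

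**Figure D3:**
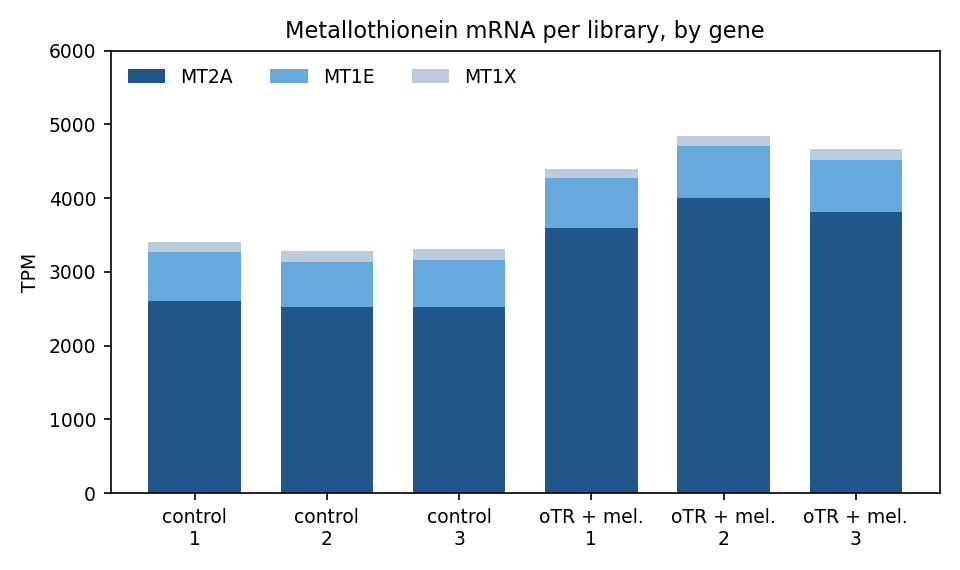
TPM of MT2A, MT1E and MT1X stacked for each of the 6 libraries, with the axis starting at 0. The co-treated bars reach 4392 to 4846 TPM against 3281 to 3408 TPM in controls, and the difference lies mostly in the MT2A part.

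The log2 ratio of MT2A to each other tested member was taken within each library. MT2A is the numerator because it was the member called, so the ratios are no independent support for its change. The ratio of MT2A to MT1X was higher in co-treated cells by 0.65, that of MT2A to MTF1 by 0.45, that of MT2A to MT1E by 0.41 and that of MT2A to SLC30A1 by 0.33 (log2 of CPM). In the 4 ratios, all 3 co-treated libraries lay above all 3 controls. The exact two-sided permutation test gave p = 0.1 for each (adjusted p = 0.1 over the 4), the smallest value that 3 against 3 libraries allow, so the test could not pass 0.05. In TPM, MT2A was 4.005 ± 0.108 times MT1E in controls and 5.49 ± 0.162 times in co-treated cells, and 17.9 ± 0.825 and 28.1 ± 2.49 times MT1X (SD, n = 3).

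The metallothionein mRNAs are among the shortest in the table, and changes in these libraries varied with length. Genes whose most abundant transcript was at most 500 nt had a median log2 fold change of -0.18 (461 genes), against 0.13 for those above 8000 nt (1199 genes) and 0.002 for all. Of all 16557 tested genes, 2835 (17.1%) were called lower and 2743 (16.6%) higher. Of the 461 short genes, 73 were called lower and 3 higher. The 3 were MT2A (401 nt), the histone gene H4C14 and the antisense RNA gene IQCH-AS1, singled out after their values were seen. H4C14 went from 0.928 to 1.83 CPM and IQCH-AS1 from 3.87 to 5.64 CPM, levels far below that of MT2A. Among the 182 genes of 300 to 500 nt, 17 had a log2 fold change at or above that of MT2A, as did 1420 of all 16557. With the length trend removed the MT2A log2 fold change was 0.64, and with length and GC trends removed 0.69 (edgeR adjusted p = 1.37e-06 and 1.69e-07). SLC30A1 (5893 nt) and MTF1 (7937 nt) are long; genes above 4000 nt and up to 8000 nt had a median of 0.076. What produces the length trend was not tested.

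**Figure D4:**
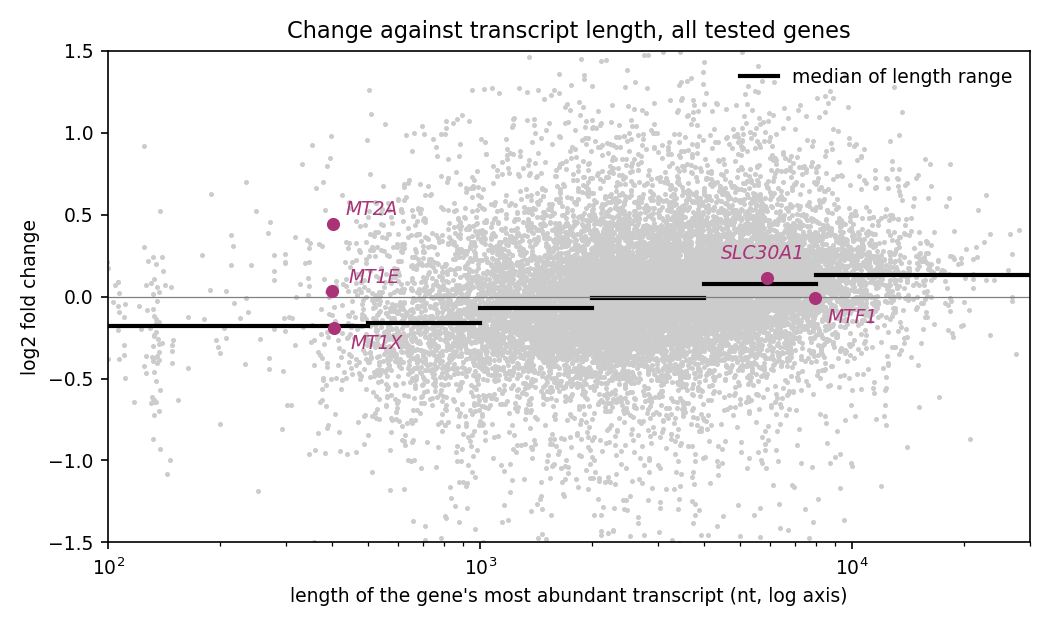
Log2 fold change of each tested gene (grey) against the length of its most abundant transcript (log axis), with the median of each length range as a black line; 290 of 16557 genes fall outside the axes. MT2A, at 0.45, lies above the -0.18 median of genes up to 500 nt, MT1E lies at 0.035 and MT1X at -0.19, close to that median.

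Of the tested members, MT1E and MTF1 have more than 1 transcript in the table. The 2 MT1E transcripts share their ends (56625781 to 56627112): variant 2, of 398 nt, has 3 exons in GENCODE and the coding sequence shown above, and variant 1, of 746 nt, has 2 exons and a reading frame of 127 codons with 14 cysteine codons. Variant 1 held 19.97%, 20.8% and 15.5% of MT1E counts in the controls and 28.7%, 23.1% and 23.2% in the co-treated libraries. The co-treated shares all lay above the control shares, by 6.27 percentage points on average (exact two-sided permutation p = 0.1, the smallest 3 against 3 allows). How many other transcripts have shares that separate in this way was not counted, so the separation cannot be called particular to MT1E. Variant 1 had a log2 fold change of 0.46 ± 0.15 and variant 2 one of -0.068 ± 0.079 (SE; edgeR adjusted p = 0.474 and 0.920 over all transcripts). Over all 65252 tested transcripts 1 was called (0.00153%), with 5586 at an unadjusted p under 0.05, and limma-voom called 2 (0.00307%, with 6501). The single MT2A transcript carries the same counts as the gene, and in this fit its adjusted p was 0.139 at a log2 fold change of 0.46. NM_005955, the curated MTF1 transcript, held 92.5% to 99.9% of MTF1 counts in each library. The predicted variant X1 had 16, 125 and 11 counts in the controls and 0, 124 and 187 in the co-treated libraries, which overlapped; its log2 fold change was 1.18 by edgeR (adjusted p = 0.948) and -0.009 by limma-voom (0.999).

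The zinc transporter genes around the members moved in both directions. Of 10 zinc exporter genes other than SLC30A1 (9 of the SLC30 family and TMEM163), 6 were tested, 2 rose and none fell, with a median log2 fold change of 0.15 against 0.002 for all tested genes, of which 16.6% rose and 17.1% fell. SLC30A4, a zinc transporter of intracellular vesicles, had 9.69, 12.1 and 9.94 CPM in the controls and 19.2, 18.6 and 19.4 CPM in the co-treated libraries. The groups did not overlap, and the log2 fold change was 0.85 ± 0.086 (SE; edgeR adjusted p = 6.67e-05), beyond that of MT2A. SLC30A9 rose from 71.9 ± 2.55 to 82.8 ± 5.12 CPM (SD, n = 3; edgeR adjusted p = 0.0143). Without control replicate 3 it no longer passed (0.17 on the log2 scale, adjusted p = 0.0555), nor on log2(TPM + 1) without a filter (0.55, limma adjusted p = 0.156). With length and GC trends removed the list's median was -0.024.

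Of 14 zinc importer genes (SLC39A1 to SLC39A14), 11 were tested, 1 rose and 3 fell, with a median of -0.053 (16.6% and 17.1% of all tested genes). SLC39A9, a ZIP transporter of the secretory pathway, rose from 69.8 ± 4.199 to 82.9 ± 1.19 CPM (edgeR adjusted p = 0.00373). SLC39A1, at the plasma membrane, fell from 170 ± 9.88 to 143 ± 6.53 CPM (edgeR adjusted p = 0.00478). SLC39A7, which releases zinc from the endoplasmic reticulum, fell from 169 ± 9.61 to 148 ± 2.85 CPM, and SLC39A4 fell from 13.2 ± 1.34 to 10.2 ± 1.248 CPM (SD, n = 3; edgeR adjusted p = 0.0135 and 0.0144). Without control replicate 3 the calls of SLC39A7 (log2 fold change -0.14, adjusted p = 0.0523) and SLC39A4 (-0.30, 0.0632) were lost, and on the log2(TPM + 1) scale those of SLC39A1 (-0.12, limma adjusted p = 0.0896) and SLC39A7 (-0.058, 0.276) were. SLC39A4 also lost its call with the length trend removed (-0.22, edgeR adjusted p = 0.0651), with length and GC trends removed (-0.16, 0.112) and on log2(TPM + 1) without a filter (-0.31, limma adjusted p = 0.0932), and SLC39A7 with library size alone (-0.13, edgeR adjusted p = 0.0527). SLC39A14 and SLC39A10, themselves well expressed, had log2 fold changes of -0.001 and -0.11 (edgeR adjusted p = 0.994 and 0.146).

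Copper is another metal that metallothioneins bind in cells. Of 14 copper handling genes 13 were tested, 5 fell and none rose, with a median of -0.038. Of all tested genes, 17.1% fell and 16.6% rose. STEAP3, a metalloreductase of iron and copper, fell from 91.8 ± 1.38 to 62.0 ± 2.42 CPM (SD, n = 3). On the log2 scale this was -0.57 ± 0.046 (SE, adjusted p = 1.85e-05 by edgeR). The copper chaperone ATOX1 fell from 36.7 ± 2.103 to 27.8 ± 1.51 CPM and CUTC from 29.1 ± 1.15 to 21.6 ± 1.05 CPM. SCO1 and COX17, which deliver copper to cytochrome c oxidase, fell from 56.5 ± 1.59 to 44.5 ± 0.916 CPM and from 29.4 ± 2.37 to 23.3 ± 2.19 CPM (SD, n = 3). COX17 lost its call with the length trend removed (log2 fold change -0.14, edgeR adjusted p = 0.106), with length and GC trends removed (-0.16, 0.0695) and on log2(TPM + 1) without a filter (-0.21, limma adjusted p = 0.0962). The importer SLC31A1 and the exporters ATP7A and ATP7B had log2 fold changes of -0.038, 0.083 and 0.30 (edgeR adjusted p = 0.645, 0.398 and 0.0575).

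**Figure D5:**
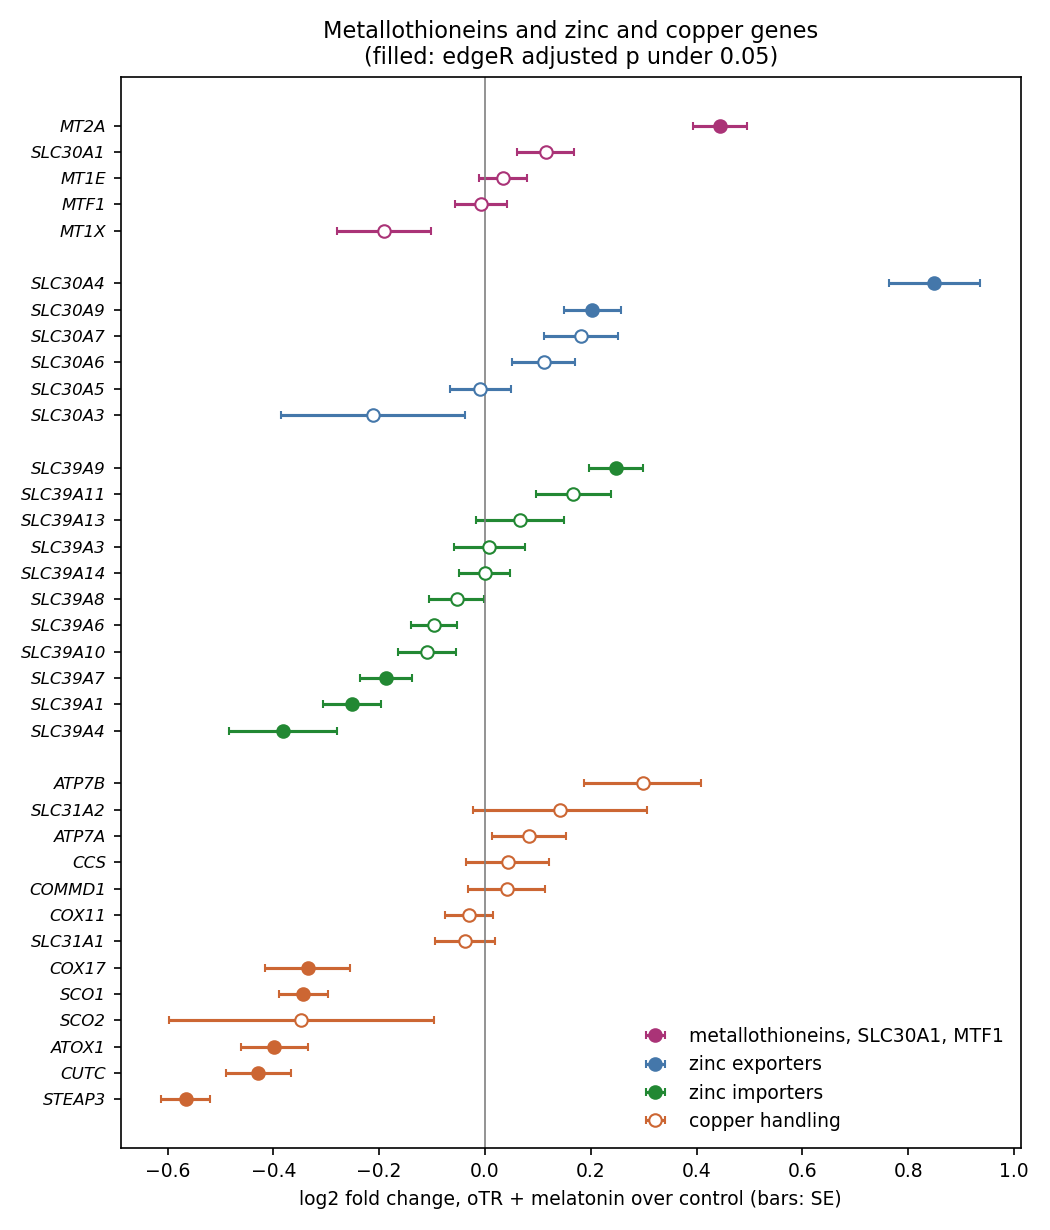
Log2 fold change with SE of the 5 tested members and of the tested zinc exporter, zinc importer and copper handling genes, each group ordered by its change; filled symbols passed the test. MT2A and SLC30A4 lie farthest right in their groups, and the called copper genes all lie below 0.

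Genes induced by other known stimuli of metallothioneins moved in both directions. Of 14 metal- and oxidant-induced genes, all tested, 6 rose and 2 fell, with a median of 0.059, where 16.6% of all tested genes rose and 17.1% fell. Those that rose were HSPA1A and HSPA1B, near-identical heat shock genes whose reads can be shared (log2 fold changes 0.55 and 0.61), TXNRD1 (0.27), GCLC (0.22), DNAJB1 (0.20) and SLC48A1 (0.20). HMOX1, the haem oxygenase induced by cadmium and oxidants, fell from 15.5 ± 1.04 to 12.1 ± 0.595 CPM, and OSGIN1 from 15.9 ± 0.919 to 11.3 ± 1.01 CPM (SD, n = 3; edgeR adjusted p = 0.00348 and 0.00113). HMOX1 lost its call on log2(TPM + 1) without a filter (-0.22, limma adjusted p = 0.0566). The GCLC call was lost without control replicates 2 (0.22, adjusted p = 0.0547) or 3 (0.17, 0.0723) or co-treated replicate 3 (0.17, 0.0945). That of DNAJB1 was lost without control replicates 1 (0.15, 0.0873) or 2 (0.17, 0.0653) or co-treated replicate 2 (0.19, 0.0565), and that of SLC48A1 without any one library but co-treated replicate 1 (0.16 to 0.22, 0.0572 to 0.129), by DESeq2 (adjusted p = 0.0503) and without a filter on low counts (edgeR adjusted p = 0.0727).

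Of 13 genes of the glucocorticoid response (the receptor gene NR3C1 and genes it is reported to induce), 12 were tested, 4 rose and 1 fell, with a median of 0.17 (16.6% and 17.1% of all tested genes). DUSP1 rose from 48.9 ± 3.66 to 75.7 ± 5.12 CPM and ERRFI1 from 287 ± 4.13 to 397 ± 21.99 CPM (SD, n = 3). ANGPTL4 and BCL6 rose by 0.45 and 0.35 on the log2 scale (edgeR adjusted p = 0.00406 and 0.0195), and TFCP2L1 fell by 0.96 (0.000106). The BCL6 call was lost without control replicates 1 (0.32, 0.0707) or 2 (0.32, 0.0694) or co-treated replicate 1 (0.23, 0.0643), and on log2(TPM + 1) without a filter (0.42, limma adjusted p = 0.0696). FKBP5, TSC22D3 and PER1, common readouts of the receptor, had log2 fold changes of 0.078, -0.18 and 0.011 (edgeR adjusted p = 0.314, 0.330 and 0.925).

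Among 10850 other genes with at least 5 CPM, the 5 whose log2 CPM over the 6 libraries was most like the mean of MT2A, MT1E and MT1X were NR1H3, KLHL22, TRPC4AP, C4orf33 and NAA80 (Pearson r = 0.977 to 0.982). With each group's mean removed, the 5 most alike were SNRNP25, OASL, FLCN, AKTIP and MED26 (r = 0.997 to 0.999). None of the first 5 genes passed the test (edgeR adjusted p = 0.1995 to 0.8088). Of the second 5, SNRNP25 was called, lower (log2 fold change -0.39, edgeR adjusted p = 0.00227). Each r was picked as among the highest of 10850, so its size carries no weight. These correlations are descriptions over 6 libraries of 2 groups, and within a library all genes share its depth and treatment.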

How the data were processed

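The submitters' processing notes name Trimmomatic 0.38, HISAT2 2.1.0, Bowtie2, SAMtools 1.9, StringTie 2.1.3b and GRCh38, without roles. No source used here states strandedness or a library kit, so reads of a gene and an overlapping partner may be mixed. The authors deposited estimated counts, FPKM and TPM per gene and per transcript, per the file headers. Each of 326895 low transcript values lay within about 1 count of FPKM times length, and all 46427 gene values equalled their transcripts' sums. Column prefixes Con and Mo were taken to mean control and melatonin with oTR; the labels do not spell this out. FPKM, per the file headers, was used for that check only, and TPM, as deposited, for levels per length.

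Estimated counts were tested with edgeR 4.0.16 (quasi-likelihood, relative log expression factors, the method in the labels, filterByExpr with minimum count 10) in R 4.3.3, 3 against 3 libraries, at a Benjamini-Hochberg adjusted p of 0.05. CPM uses the same factors. Errors are SD or the fit's SE. The genes, lists and tests were chosen with earlier results of these data known. Named were all members, other metallothioneins, the called genes of each list (at most 6 in a direction) and the 5 most alike; others were named after their values were seen. Alternatives used limma 3.58.1, DESeq2 1.42.0, other factors and filters, a replicate block, each library left out, and lowess removal of length and GC trends (GC found for 86.8% of tested genes). limma-voom on transcripts was added after seeing the data. Replicates of one group were not duplicates (chi-square over its degrees of freedom, 11.6 to 19.0 per pair). On simulated counts, with far fewer changed genes than were called here, the share of false calls was above the nominal threshold. That share may not carry over to these data. Changes were missed at every simulated size but the largest, most often at the smallest. Figures were drawn with matplotlib 3.10.9.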

Additional observations from a re-analysis of the deposited data

How the results depend on the processing

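The MT2A call held in all 19 alternatives on the gene values. On the transcript counts MT2A was called in 0 of 10 alternatives (edgeR or limma-voom adjusted p = 0.0899 to 0.596). The main transcript fit called 1 of 65252 transcripts. The number of genes called ran from 4178 (log2(TPM + 1), no filter) to 6367 (replicate block), and 4223 to 4820 with 1 library left out, against 5578. The split of higher and lower calls moved from 2743 and 2835 to 3816 and 2065 with library size alone, and to 4516 and 1339 on log2(TPM + 1). For SLC30A1 the log2 fold change was 0.17 with library size alone, 0.165 when library sizes omitted the 20 most abundant genes, 0.24 and 0.25 on log2(TPM + 1) and log2(TPM + 0.1), all called, and 0.24 without a filter, not called; it was 0.085 to 0.165 with 1 library left out and -0.040 with length and GC trends removed. MT1E passed at 0.23 and 0.28 with the length trend, or length and GC trends, removed. MT1X was -0.275 to -0.086 with 1 library left out and 0.054 with both trends removed. MTF1 was 0.051 with library size alone, 0.042 with those 20 genes omitted, 0.11, 0.12 and 0.11 on the TPM scales, and -0.027 to 0.009 with 1 library left out, never called; its curated transcript was 0.014 with library size alone. The MT2A ratios kept their sign in 7 of 7 alternatives each. The causes of these changes were not tested. The list medians ran from -0.024 to 0.27 (zinc exporters), -0.084 to 0.066 (importers), -0.10 to 0.095 (copper), 0.021 to 0.18 (metal and oxidant) and 0.096 to 0.30 (glucocorticoid).

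Deviations from the group means did not show a pairing by replicate number, and they cannot exclude one. They correlated at 0.069, 0 and -0.036 for numbers 1, 2 and 3. The value for number 1 was the highest of all pairs, while control replicate 2 correlated best with co-treated replicate 3. With the replicate number as a block 6367 genes were called, MT1X passed at -0.20 (edgeR adjusted p = 0.0277), and no other member's call changed. For genes listed at 0, the floor of 3 counts covers counting error only, not reads assigned to a relative.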
